A study of Homo sapiens with 6 samples.

Results

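The genes described here carry a cell from growth factor signal to the end of G1, and were measured in SW780 cells with and without RC48. Members were chosen by symbol. They were the D cyclins CCND1, CCND2 and CCND3, the kinases CDK4 and CDK6, the inhibitors CDKN1B, CDKN2B and CDKN2C, the pocket protein RB1 and the transcription factor MYC. Of these 10 genes, 8 had a row among the 16390 genes of the count tables, and all 8 were among the 13055 genes tested. CCND2 and CDKN2B had no row, count as not detected under the rule, and were not analysed here.

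SW780 is an established human bladder cancer line that the study treats as a luminal type. RC48, or disitamab vedotin, is an antibody-drug conjugate that binds the receptor ERBB2 and releases a microtubule inhibitor inside the cell. The comparison was between 3 Control libraries and 3 libraries of cells given RC48, at a dose of 25 µg/ml. The time of exposure and the treatment of the Control cells are not given in the sources used here. Both groups are 1 cell line, described in the methods as stable, with no other agent named, and the labels enter Control and RC48 under genotype. The labels do not say that replicates came from separate cultures, so p-values measure only the spread between these libraries, which may be technical. RNA was measured in bulk, and fewer cells of a kind cannot be told apart from less RNA per cell.

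Cyclin D binds CDK4 or CDK6, and the complex phosphorylates RB1, which otherwise holds E2F transcription factors inactive. CDKN2B and CDKN2C belong to the INK4 family and bind CDK4 and CDK6 directly, while CDKN1B, also called p27, acts mainly on cyclin E and cyclin A complexes of CDK2. MYC, with its partner MAX, drives genes of ribosome production and metabolism, and its own mRNA and protein are short-lived. ERBB2 signalling is known to raise cyclin D and to lower p27 in epithelial cancers, and loss of RB1 and gain of CCND1 are frequent in bladder cancer.

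Library totals lay between 16453233 and 17988030 estimated counts, so the deepest library was 1.09 times the shallowest. Values below are normalized counts scaled to library size (CPM) for comparing libraries and transcript abundances that are also divided by transcript length (TPM) for comparing genes. RC48 replicate 2 had no TPM values of its own here, and they were computed from its counts and the lengths implied by the other libraries. The fit was edgeR's quasi-likelihood test, with a gene called at a Benjamini-Hochberg adjusted p under 0.05 over all genes tested. RC48 libraries differed more among themselves than Control libraries did, with a chi-square per degree of freedom of 22.4 to 135.6 against 1.44 to 11.6 between pairs over 11976 genes. In RC48 replicates 1 and 3 the log2 ratio to the Control mean rose with the GC content of the transcripts, with a Spearman's rho across 13000 genes of 0.74 in RC48 replicate 1, -0.02 in replicate 2 and 0.57 in replicate 3. ERBB2, the target of RC48, stood at 205 ± 3.05 CPM in Control and 229 ± 46.3 CPM after RC48 (SD, n = 3 each), with an edgeR adjusted p of 0.519. Its log2 fold change was 0.16, and after correction for GC content it turned to -0.15 (edgeR adjusted p = 0.251). All 4 epithelial markers reached 10 TPM in every library, as did 4 of 6 luminal markers, while KRT20 was at most 2.44 TPM and UPK3A at most 1.24 TPM. Of 5 basal markers 4 had a row, with a sum of 129.3 to 136.6 TPM in Control and 117.1 to 134.8 TPM after RC48. CD44 carried most of that sum, at 96.5 to 123.5 TPM, while KRT5, KRT6A and KRT14 were at most 8.95, 3.86 and 7.80 TPM. Markers of other cell types were low in sum, 21.6 to 43.3 TPM over 6 leukocyte genes, most of it CD68, with PTPRC at most 0.0206 TPM, and 4.99 to 8.15 TPM over 4 endothelial genes. The fibroblast sum was 122.9 to 134.6 TPM in Control and 49.7 to 89.9 TPM after RC48 and was carried by LUM, with DCN at most 0.0617 TPM. Its part in the results below was not tested.

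None of the 8 measured members was called by edgeR between RC48 and Control, where 2.21% of all genes were called (1.98% higher and 0.23% lower after RC48). MYC was the member closest to the threshold and was about 30.3% lower in CPM after RC48, with no overlap between the groups. RB1 was lower by a similar amount on average, but its RC48 libraries ran from far below the Control range to a level inside it. The G1 cyclins and kinases had fitted log2 fold changes between -0.07 and 0.33. By unadjusted p, edgeR placed 1 of 8 members (MYC) under 0.05, beside 19.1% of all genes. MYC and CDKN2C were the 2 of 8 members whose groups did not overlap in CPM, both lower after RC48, against 14.1% of all genes that were lower without overlap. The median log2 fold change of the 8 was -0.14, with 2 above 0 and 6 below 0. Over all genes the median was 0.02, and 48.6% were below 0. DESeq2 called 1 member (MYC) beside 5.7% of all genes, limma on the 5 libraries with TPM of their own called 2 (MYC and RB1) beside 22.2%, and voom with sample quality weights called 5 (CCND3 higher, and CCND1, CDKN1B, RB1 and MYC lower) beside 61.4%. Without RC48 replicate 2 edgeR called MYC and RB1, and the remaining settings called MYC alone or no member.

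**Figure D1:**
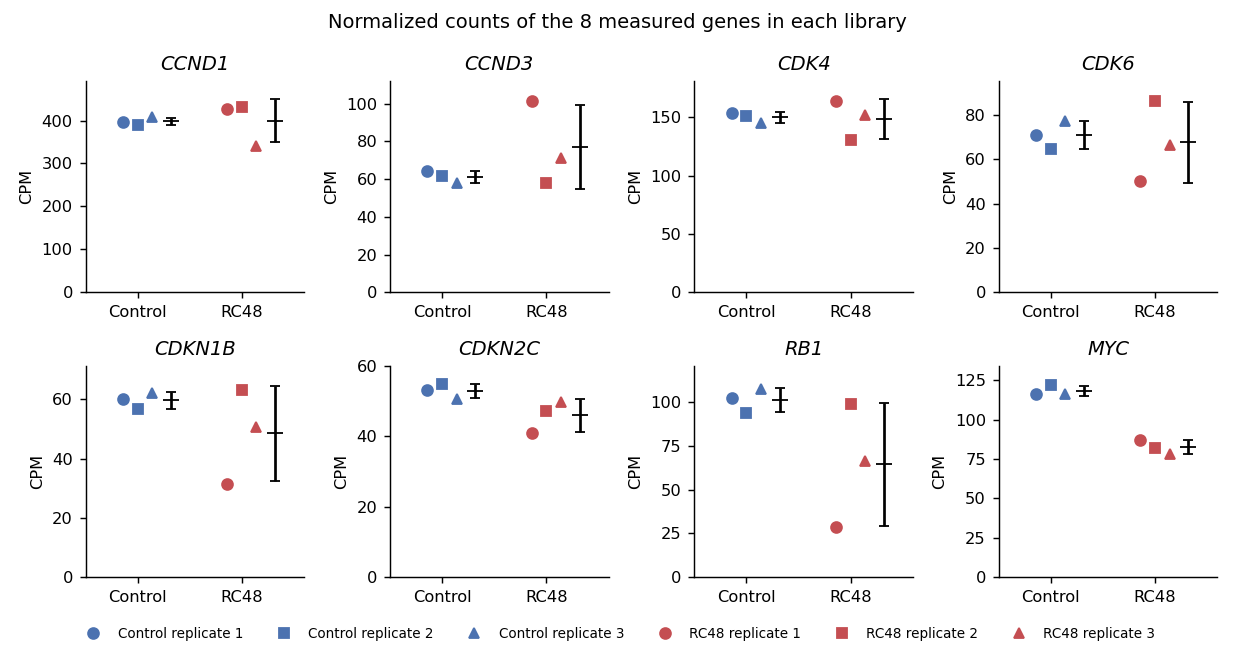
Normalized counts in CPM (vertical axes, linear from 0) of the 8 measured genes in each Control (blue) and RC48 (red) library, with the mean and SD of 3 libraries in black. MYC lies between 78.1 and 87.2 CPM in RC48 libraries and between 116 and 122 CPM in Control, whereas RB1 spans 28.3 to 98.7 CPM after RC48.

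CCND1 (NCBI gene 595, GRCh38 chr11:69641087-69654474, plus strand) encodes cyclin D1, the main growth factor-responsive D cyclin of epithelial cells. It stood at 397, 391 and 407 CPM in Control replicates 1, 2 and 3, and at 427, 431 and 342 CPM in RC48 replicates 1, 2 and 3. RC48 libraries lay on both sides of the Control range. Between the groups the log2 fold change was 0.01 (SE 0.126, 95% interval -0.29 to 0.30, edgeR adjusted p = 0.980), which leaves folds from 0.82 to 1.23. Its sign was not stable, being negative in 15 of 18 alternative settings (-0.25 to 0.08 over all 18).

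CCND3 (NCBI gene 896, chr6:41934933-42050357, minus strand), the other D cyclin with a row, stood at 64.1, 61.7 and 57.7 CPM in Control and at 101, 58.1 and 71.1 CPM after RC48. Replicate 1 was the highest RC48 library, and replicate 2 lay within the Control range. The log2 fold change of 0.33 (SE 0.204, 95% interval -0.14 to 0.80) did not pass the edgeR test, with an adjusted p of 0.343. CCND3 had the highest GC content of the 8 members, 60.5%, and after correction for GC content its log2 fold change was 0.00 (-0.003, edgeR adjusted p = 0.985). Without RC48 replicate 1 it was 0.07, and without replicate 2 it was 0.49.

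Measured per length, CCND1 dominated the D cyclins with a row. D cyclin TPM here is the sum of CCND1 and CCND3, since CCND2 had no row. CCND1 made up 73.2%, 73.6% and 75.7% of it in Control and 65.6%, 76.6% and 67.9% after RC48. The RC48 shares fell on either side of the Control range. Mean shares were 74.2% ± 1.34 and 70.0% ± 5.79 (SD, n = 3 each), a difference of -4.15 percentage points with an exact permutation p of 0.4 (two-sided, smallest possible value 0.1).

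CDK4 (NCBI gene 1019, chr12:57747727-57756013, minus strand) encodes a kinase partner of the D cyclins and is a known MYC target gene. Its estimated counts were the only ones among the members that were not whole numbers. RSEM gives such values where it divides reads between sequences, so the level of CDK4 is uncertain to an extent that was not measured. It stood at 154, 151 and 145 CPM in Control and at 164, 130 and 152 CPM after RC48, with the Control range inside the RC48 range. Its log2 fold change was -0.01 (SE 0.124, 95% interval -0.30 to 0.28, edgeR adjusted p = 0.960).

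The CDK4 promoter is shown because it held more MYC/MAX E-boxes than any other member's promoter that was matched. Promoter windows of 250 bases before the start site came from RefSeq (GRCh38.p14) and were matched for 6 of the 8 measured members, CCND3, CDK4, CDK6, CDKN1B, CDKN2C and RB1, with 1 start site each. By the gene positions given here, the windows of CCND3, CDK4, CDKN1B and RB1 lay inside their genes and away from the annotated 5′ ends. CCND1 and MYC had no entry. The window of CDK4 on the minus strand, chr12:57752311-57752560, reads 5′ to 3′ as follows, with capitals marking CACGTG, which reads the same on both strands.

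CDK4: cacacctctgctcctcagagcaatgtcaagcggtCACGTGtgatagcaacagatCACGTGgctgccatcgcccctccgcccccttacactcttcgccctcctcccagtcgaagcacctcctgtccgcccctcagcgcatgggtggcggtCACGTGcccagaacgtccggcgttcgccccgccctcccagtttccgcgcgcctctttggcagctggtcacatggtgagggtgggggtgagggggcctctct

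It held 3 such sites, a number reached by 0.0879% of 27305 promoter windows, and 6.49% of windows held at least 1. The CDKN2C window held 1, and the other 4 windows held none. None of the 6 windows held a match to the E2F motifs searched, which 2.79% of all windows held. Such matches describe letters and do not show binding.

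CDK6 (NCBI gene 1021, chr7:92604921-92836594, minus strand), the other kinase of the pair, stood at 71.0, 64.5 and 77.2 CPM in Control and at 50.0, 86.4 and 66.3 CPM after RC48. Replicate 1 lay below and replicate 2 above all Control libraries. RC48 over Control, the log2 fold change was -0.07 (SE 0.202, 95% interval -0.54 to 0.40, edgeR adjusted p = 0.832), and it turned to 0.10 without RC48 replicate 1. CDK4 made up 94.1%, 94.5% and 93.3% of the TPM of the pair in Control and 95.8%, 91.7% and 94.3% after RC48. The mean shares differed by -0.01 percentage points (exact permutation p = 1).

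CDKN1B (NCBI gene 1027, chr12:12715058-12722371, plus strand), the p27 gene, stood at 60.2, 56.6 and 62.3 CPM in Control and at 31.6, 63.2 and 50.8 CPM after RC48. RC48 replicate 1 was the lowest library and replicate 2 the highest of all 6. A log2 fold change of -0.30 (SE 0.235, 95% interval -0.84 to 0.25) did not pass the edgeR test, with an adjusted p of 0.429. It lay between -0.54 and -0.07 when 1 library was left out.

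CDKN2C (NCBI gene 1031, chr1:50960745-50974633, plus strand) encodes p18, the INK4 inhibitor with a row. It stood at 53.1, 54.9 and 50.7 CPM in Control and at 40.9, 47.2 and 49.9 CPM after RC48. Each RC48 library lay below each Control library, although the highest RC48 value and the lowest Control value were close. Its log2 fold change was -0.20 (SE 0.128, 95% interval -0.50 to 0.10, edgeR adjusted p = 0.351), with an exact permutation p of 0.1, the smallest that 3 against 3 libraries allow. The sign was negative in all 18 alternative settings, and none of them called the gene.

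RB1 (NCBI gene 5925, chr13:48303726-48599436, plus strand) was the member with the widest RC48 range as a ratio of highest to lowest library. It stood at 102, 94.0 and 107 CPM in Control and at 28.3, 98.7 and 66.1 CPM after RC48. Replicates 1 and 3 lay below every Control library, replicate 2 lay within their range, and the highest RC48 library was 3.49 times the lowest, against 1.14 times in Control. The log2 fold change was -0.65 (SE 0.379, 95% interval -1.53 to 0.23, edgeR adjusted p = 0.325). Leaving out RC48 replicate 2 gave -1.10 with an edgeR adjusted p of 0.0359, within a range of 3.75e-05 to 0.554 over all alternatives. That setting called 28.3% of all genes, and MYC and RB1 among the members. RB1 also had the lowest GC content of the 8, 41.7%, and its correction for GC content gave -0.45 (edgeR adjusted p = 0.239).

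MYC (NCBI gene 4609) stood at 117, 122 and 116 CPM in Control and at 87.2, 82.1 and 78.1 CPM after RC48. All RC48 libraries lay below all Control libraries, and the RC48 SD was 1.38 times that of Control, the smallest ratio among the members. The log2 fold change was -0.52 (SE 0.111, 95% interval -0.78 to -0.27), a fold of 0.70 (0.58 to 0.83). The unadjusted p was 0.00165 and the edgeR adjusted p 0.0655, so MYC was not called, and the exact permutation p was 0.1.

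The MYC log2 fold change was negative in all 18 alternative settings, from -0.79 with the replicate block and GC correction to -0.50, and lay between -0.57 and -0.50 when 1 library was left out. MYC was called in 10 of the 18 settings, with adjusted p from 2.76e-07 to 0.369. It was not called without Control replicate 1, 2 or 3 (edgeR adjusted p = 0.339, 0.369 and 0.239) or without RC48 replicate 3 (edgeR adjusted p = 0.315). DESeq2 gave an adjusted p of 0.000479 for MYC, and edgeR after GC correction gave -0.78 with an adjusted p of 0.00518.

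**Figure D2:**
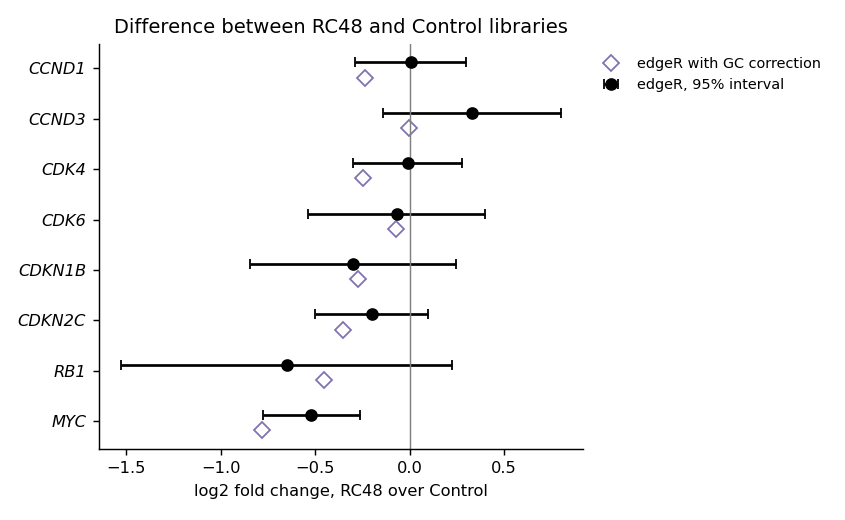
Fitted log2 fold change of RC48 over Control (horizontal axis) for the 8 measured genes, as edgeR estimates with 95% intervals (black) and as estimates after GC correction (open diamonds). The interval of MYC, -0.78 to -0.27, is the only one of 8 that does not hold 0 before correction.

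The 3 genes below tracked MYC most closely across the 6 libraries in log2 CPM among 9994 genes with a mean of at least 10 CPM, and they are given as a description of 6 libraries in 2 groups. They were UPK1B, a uroplakin of the urothelial surface, with a Pearson's r of 0.994, SLC14A1, a urea transporter, with 0.992, and DNMT3B, a DNA methyltransferase, with 0.986. UPK1B stood at 101, 103 and 103 CPM in Control and at 77.9, 74.5 and 73.8 CPM after RC48. Its groups did not overlap, and its log2 fold change of -0.44 had an edgeR adjusted p of 0.0951.

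On the TPM scale, CCND1 and CDK4 were the most abundant members in both groups, at 178 ± 13.2 and 170 ± 4.49 TPM in Control and 170 ± 25.01 and 157 ± 6.87 TPM after RC48 (SD, n = 3 each). Their ranges overlapped in each group. In Control, CDKN2C (62.7 ± 2.21 TPM), CCND3 (61.9 ± 1.16 TPM) and MYC (59.0 ± 2.69 TPM) came next, with each overlapping its neighbour in the order. CDKN1B at 47.6 ± 4.61 TPM and RB1 at 39.9 ± 4.55 TPM overlapped each other and lay below MYC, and CDK6 was lowest at 11.0 ± 1.51 TPM. After RC48, CCND3 came before CDKN2C, at 72.5 ± 15.2 against 52.3 ± 10.1 TPM, and those 2 did not overlap. From CDKN2C to CDK6 each RC48 level overlapped the next one in the order, with MYC at 39.0 ± 2.36, CDKN1B at 37.0 ± 14.5, RB1 at 24.7 ± 14.7 and CDK6 at 10.1 ± 3.28 TPM.

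The members varied more among RC48 libraries than among Control libraries. The SD in CPM was larger after RC48 in 8 of 8 members, with a median ratio of 4.49 and a range of 1.38 to 6.86, as it was in 83.5% of all genes, whose median ratio was 2.76. The order of the members in RC48 replicate 1 went with GC content. Across the 8 genes, which are not independent replicates, Spearman's rho between GC content and the log2 ratio to the Control mean was 0.83 in replicate 1, -0.43 in replicate 2 and 0.50 in replicate 3.

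RB1, of low GC content, and CCND3, of high GC content, marked the ends of that spread. In RC48 replicate 1 the log2 ratio of RB1 was -1.83 where the trend over all genes at its GC content stood at -0.69, and that of CCND3 was 0.73 where the trend stood at 0.62. MYC, at 58.4% GC, lay at -0.44, -0.53 and -0.60 in RC48 replicates 1, 2 and 3, below trends of 0.56, 0.04 and 0.22. The part of GC content in the members' values was not tested beyond the correction. With that correction 8 of 8 members had a negative log2 fold change, with a median of -0.26 against -0.02 over all genes. CCND3 (-0.003, SE 0.085) and CDK6 (-0.073, SE 0.160) were nearer 0 than their SE. The share of all genes below 0 was not counted in that setting. There edgeR called MYC alone, where it called 3.15% of 13000 genes as lower.

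**Figure D3:**
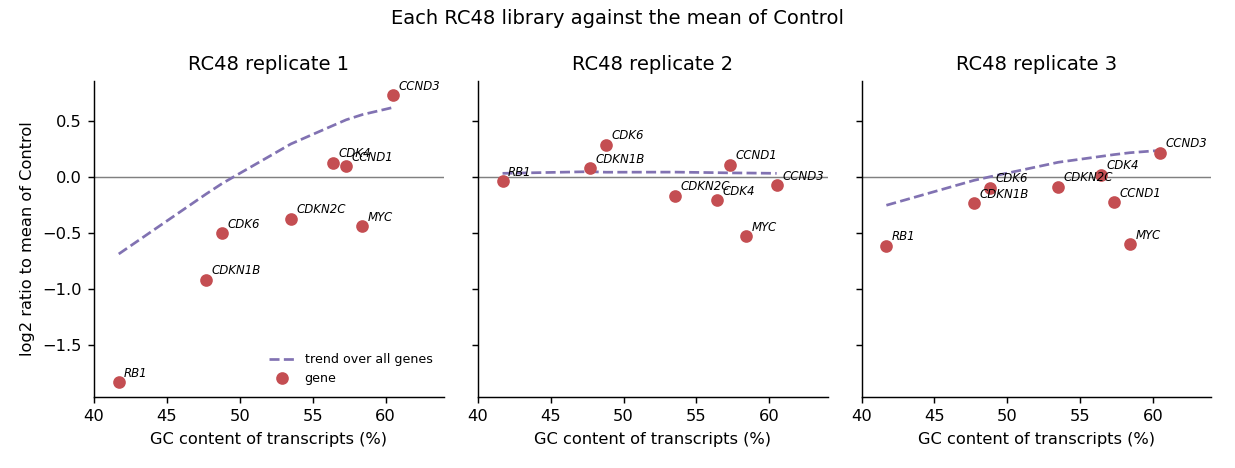
Log2 ratio to the Control mean in 1 RC48 library per panel (vertical axis) against the GC content of each gene's transcripts in percent (horizontal axis) for the 8 measured genes, with the trend over all genes as a dashed line. In replicate 1 the genes run from -1.83 (RB1) to 0.73 (CCND3), while MYC lies below the trend in all 3 panels.

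Other genes of the pathway were described from lists that were chosen with earlier results of these data known. Shares of a list set beside those of all genes are therefore descriptions. The lists held 112 genes, of which 109 were tested. Of these, 5 were called (4.59%, against 2.21% of all genes), 1 higher and 4 lower after RC48. None of the 5 was called without any 1 of the Control libraries or without RC48 replicate 3.

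Among 10 tested cyclins, kinases and inhibitors of G1 and S outside the members, the median log2 fold change was -0.24. Of these 10, edgeR called 1 higher and none lower, beside 1.98% and 0.23% of all genes. By unadjusted p, edgeR placed 4 of the 10 lower under 0.05, as it did 7.21% of all genes, and DESeq2 called 1 of them lower, as it did 1.59% of all genes. The called gene was CDKN1A, which encodes the CDK inhibitor p21, a direct target of p53. It rose from 202, 202 and 195 CPM in Control to 408, 334 and 374 CPM after RC48. The groups did not overlap, with a log2 fold change of 0.90 (SE 0.118, edgeR adjusted p = 0.00917). The adjusted p for CDKN1A reached 0.0930 when 1 library was left out.

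Tests covered 17 genes of the RB family, the E2F and DP factors and the MuvB core. Of the 17, edgeR called 1, lower (0.23% of all genes), and 14 had a negative log2 fold change (48.6% of all genes). The log2 fold changes ran from -0.97 to 0.99, with a median of -0.38. By unadjusted p, edgeR placed 6 of the 17 lower and 1 higher under 0.05, beside 7.21% and 11.9% of all genes. E2F8, an atypical E2F that represses E2F targets late in S phase, fell from 10.2, 10.5 and 11.3 CPM to 4.31, 5.94 and 6.12 CPM. Its groups did not overlap, and the log2 fold change was -0.97 (SE 0.179, edgeR adjusted p = 0.0395). TFDP1, the DP partner of E2F and the most abundant gene of this list in TPM, stood at 264, 269 and 275 CPM in Control and at 192, 225 and 204 CPM after RC48. Its groups did not overlap either, but its log2 fold change of -0.38 did not pass the edgeR test (adjusted p = 0.161).

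The 20 E2F target genes of the G1/S transition had the lowest median of the lists, -0.39 on the log2 scale. Of them 17 had a negative log2 fold change (48.6% of all genes did), 13 were lower without overlap between the groups (14.1% of all genes), and 2 were called, both lower (0.23% of all genes). MCM6, a subunit of the replicative helicase, fell from 228, 224 and 214 CPM to 130, 149 and 147 CPM (log2 fold change -0.65, SE 0.112, edgeR adjusted p = 0.0310). CDC6, which loads that helicase onto origins, fell from 139, 140 and 140 CPM to 82.2, 97.3 and 94.6 CPM (log2 fold change -0.61, SE 0.116, edgeR adjusted p = 0.0429).

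In both genes the RC48 libraries lay well apart from the Control libraries. PCNA, the sliding clamp of DNA replication and the most abundant gene of the list in TPM, stood at 427, 426 and 389 CPM in Control and at 289, 346 and 320 CPM after RC48. It did not pass the edgeR test (adjusted p = 0.173).

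The MCM6 promoter is shown because it belongs to a called gene and carries matches to E2F motifs. The window of CDC6, the other called E2F target, held no match. The motifs searched on both strands were TTTCCCGC, TTTCGCGC, TTTGCCGC and TTTGGCGC, with overlapping matches counted as 1 site and marked in capitals. The window is the minus strand of chr2:135876444-135876693 (RefSeq, GRCh38.p14), read 5′ to 3′.

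MCM6: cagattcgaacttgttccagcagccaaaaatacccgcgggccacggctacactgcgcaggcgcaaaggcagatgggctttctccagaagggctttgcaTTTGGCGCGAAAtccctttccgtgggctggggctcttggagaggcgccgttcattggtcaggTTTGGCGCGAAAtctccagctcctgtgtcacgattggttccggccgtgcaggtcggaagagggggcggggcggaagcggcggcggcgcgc

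It held 2 E2F sites, a number reached by 0.121% of windows, and 2.79% of all windows held at least 1. Of the 17 E2F targets with a window, 9 (52.9%) held at least 1. The list had been drawn up as E2F targets, so that share is a description of the list.

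In the MYC dimerization network, 12 genes that pair with MYC, MAX or MLX were tested and none was called, with 6 above 0 and 6 below 0 (median 0.08). By unadjusted p, edgeR placed 2 of these 12 under 0.05, both higher, where 11.9% of all genes were, and DESeq2 called 1 of them higher, where it called 4.11% of all genes higher. MAX, the obligate partner of MYC, stood at 63.2, 61.9 and 56.6 CPM in Control and at 53.9, 63.8 and 55.8 CPM after RC48, with overlapping groups and an edgeR adjusted p of 0.740.

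Among 40 MYC target genes, chosen from ribosome production, metabolism and protein folding, 28 had a negative log2 fold change (48.6% of all genes did), with a median of -0.24. Of the 40, edgeR called 1, lower (0.23% of all genes). By unadjusted p, it placed 14 of the 40 lower and 0 higher under 0.05, beside 7.21% and 11.9% of all genes. Without overlap between the groups, 18 were lower (14.1% of all genes) and 1 was higher (2267 of 13055 genes). TMEM97, a membrane protein of cholesterol handling, fell from 95.8, 94.3 and 97.2 CPM to 57.5, 66.5 and 62.4 CPM, with a log2 fold change of -0.62 (SE 0.115, edgeR adjusted p = 0.0393). NPM1, a nucleolar chaperone of ribosome assembly and the most abundant gene of this list in TPM, stood at 849, 879 and 816 CPM in Control and at 492, 720 and 617 CPM after RC48. Its groups did not overlap, but it did not pass the edgeR test (adjusted p = 0.183). Of the 34 MYC targets with a promoter window, 8 (23.5%) held a CACGTG site, beside 6.49% of all windows. As with the E2F targets, that share describes how the list was drawn up.

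Of 10 tested genes that act in the turnover of cyclin D, p27 and MYC proteins, none was called by edgeR. Among them 6 had a negative log2 fold change, beside 48.6% of all genes, with a median of -0.17. By unadjusted p, edgeR placed 1 of them lower and 1 higher under 0.05 (7.21% and 11.9% of all genes), and DESeq2 called 1 lower (1.59% of all genes). CKS1B, the cofactor through which SKP2 recognises p27, stood at 131, 129 and 114 CPM in Control and at 120, 96.0 and 108 CPM after RC48, with overlapping groups and an edgeR adjusted p of 0.356.

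**Figure D4:**
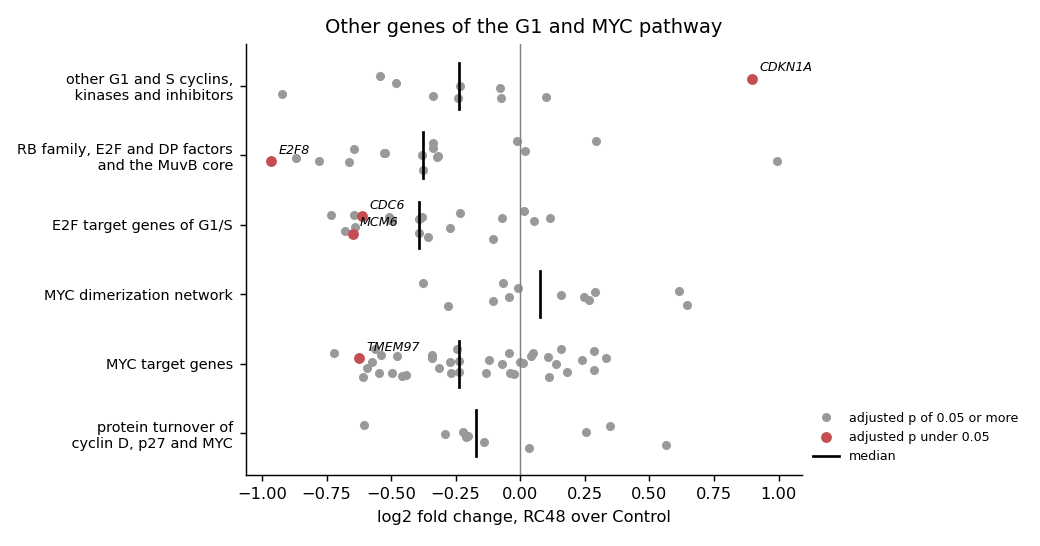
Log2 fold change of RC48 over Control (horizontal axis) of the 109 tested pathway genes, 1 row per list, with the list's median as a vertical bar and called genes in red. CDKN1A is the called gene above 0, and E2F8, MCM6, CDC6 and TMEM97 are the called genes below 0, while the median of the E2F targets stands at -0.39.

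Correction for GC content raised the number of called pathway genes to 35 of 109, of which 32 were lower, where 7.32% of all genes were called and 3.15% were called lower. Of these, 13 were among the 20 E2F targets, whose median became -0.43, and 10 were among the 40 MYC targets, whose median became -0.31. The 5 genes called without the correction did not all pass with it, since MCM6 had an edgeR adjusted p of 0.0604 there. In RC48 replicate 2, the library without a GC trend, the median log2 ratio to the Control mean was -0.43 for the E2F targets and -0.26 for the MYC targets, against 0.01 for all genes. There it was -0.14 for the RB, E2F and MuvB list, against -0.54 and -0.43 in replicates 1 and 3, and -0.19 for the other cyclins, kinases and inhibitors, -0.03 for the turnover genes and 0.01 for the MYC dimerization network.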

How the data were processed

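RNA of 6 SW780 libraries (3 Control, 3 RC48) was sequenced by BGI. Per the study's methods and the submitters' processing notes, the authors filtered reads with SOAPnuke, mapped them with Bowtie2 (build hg38) and deposited RSEM estimated counts per gene for 6 libraries. TPM as the authors deposited it, from RSEM, was used for 5 libraries. Versions and the gene annotation are not given in the sources used here. TPM of RC48 replicate 2 was computed from counts and implied lengths, and the same computation for RC48 replicate 3 differed from its deposited TPM by a median of 0.0367 on the log2 scale over 11960 genes.

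Estimated counts, of which 11.7% to 15.0% per library were not whole, were rounded. They were filtered with filterByExpr, scaled by TMM and tested with edgeR 4.0.16 (glmQLFit, glmQLFTest) in R 4.3.3, without covariates, with Benjamini-Hochberg adjustment over 13055 genes and a threshold of 0.05. The 2 shares of TPM and single genes were tested by two-sided exact permutation, whose smallest p is 0.1 for 3 against 3. Spearman's rho was computed with scipy 1.17.1. Alternatives were DESeq2 1.42.0, limma 3.58.1 on log2(TPM + 1) and log2(TPM + 0.1), voom with sample quality weights, RLE and plain library sizes, testing all genes with a count, keeping genes whose counts reached 10 in each of the libraries, a GC correction, a replicate block with and without it, shares of CPM, and leaving out each library. GC correction used a loess trend (span 0.3) of each library's log2 CPM on GC content of GENCODE release 29 transcripts, known for 99.4% of genes. The fit was also run on simulated counts with the same dispersions in both groups and no GC trend. That run therefore does not cover the wider spread and GC trends of the RC48 libraries.

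Named genes were all members, ERBB2, the called genes of each pathway list (at most 4) with its most abundant gene, and the 3 genes most correlated with the member of smallest adjusted p. The members and lists were chosen with earlier results of these data known. Gene positions came from GENCODE release 29, and promoter windows from RefSeq (GRCh38.p14). No protein or UTR sequence was used here.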

Additional observations from a re-analysis of the deposited data

How the results depend on the processing

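The main limit was the spread among RC48 libraries. With RC48 replicate 2 left out, edgeR called 3726 genes, 2 members and 44 pathway genes, and without Control replicate 3 it called 68 genes, 0 members and 0 pathway genes, which are the extremes when 1 library was left out. Leaving out RC48 replicate 1 gave 897 genes, 1 member and 24 pathway genes, while leaving out Control replicate 1 or 2 or RC48 replicate 3 gave 71, 78 and 93 genes with 0 members and 0 pathway genes. Depth was alike across libraries and every member had at least 466 estimated counts in each library.

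Genes called, against 288 in the report, numbered 744 by DESeq2, 2894 by limma on 5 libraries, 8018 by voom, 952 with GC correction and 764 with a replicate block and GC correction. With limma on 6 libraries 220 genes were called at a pseudocount of 1 and 222 at 0.1, and with library sizes alone 253. Members called, against 0, numbered 1 by DESeq2, by limma on 6 libraries with a pseudocount of 1 or 0.1, with library sizes alone, with GC correction and with a replicate block and GC correction. They numbered 2 by limma on 5 libraries and 5 by voom. Pathway genes called, against 5, numbered 22 by DESeq2, 49 by limma on 5 libraries, 2 by limma on 6 libraries with either pseudocount, 82 by voom, 3 with library sizes alone, 35 with GC correction and 30 with a replicate block and GC correction.

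Among the members and the shares, the sign turned for CCND1, CCND3, CDK4, CDK6 and the CDK4 share, and the cause was not tested. CCND1 had a log2 fold change of -0.007 by DESeq2, with RLE size factors and with at least 10 counts, -0.178 by limma on 5 libraries, -0.074 and -0.075 by limma on 6, -0.196 by voom, -0.058 with library sizes alone, -0.009 without a filter, -0.236 with GC correction, -0.002 with a replicate block and -0.254 with block and GC correction. It ranged from -0.053 to 0.083 with 1 library left out. CCND3 was at -0.003 with GC correction and -0.006 with block and GC correction, and CDK4 ranged from -0.092 to 0.075 and CDK6 from -0.286 to 0.10 with 1 library left out. The difference in CDK4 share was 0.88 percentage points in CPM and 1.11 on 5 libraries, and ranged from -0.94 to 1.11 with 1 library left out. CDKN1B, CDKN2C, RB1 and MYC were negative in all 18 alternatives.

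Whether replicate numbers pair the samples is not known. Deviations of same-numbered libraries from their group means correlated at 0.002, -0.132 and 0.005, and no Control library correlated best with its own number. With 3 libraries per group and a GC trend in RC48 replicates 1 and 3, these correlations cannot decide it. With a replicate block, edgeR called 331 genes, 0 members and 4 pathway genes, with CDC6, MCM6 and TMEM97 no longer called, CCNE2 and RBL1 called in addition, and an adjusted p of 0.140 for MYC.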
